A study of Mus musculus with 20 samples.

Results

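Genes of the cilium and of ciliated brain cells were followed in whole brains of C57BL/6J mice at 8 weeks (young) and 2 years (aged). They were taken by gene symbol. The symbols were those that begin with Ift, Bbs, Tekt, Rsph or Rfx and a digit, those that begin with Dnah, Dnaic, Dnaaf or Dnali, and Foxj1, Spag6, Spag16, Spag17, Hydin, Ak7, Mlf1, Tppp3, Kif3a, Kif3b, Kif17, Cc2d2a and Ppp1r32. Arl13b, a small GTPase of the ciliary membrane, was also sought, and no probe set carried its symbol alone. The rule found 71 genes with 117 probe sets, of 18193 genes on the array. Where a gene had several probe sets, the one with the highest mean log2 signal was used. The rule itself uses no measured difference, but the members were chosen with earlier results of these data known.

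The mice formed 4 groups of 5: wild type at 8 weeks, wild type at 2 years, alpha7-/- at 8 weeks and alpha7-/- at 2 years. The alpha7-/- animals, called alpha7-deficient here, lack a subunit, alpha7, that forms nicotinic acetylcholine receptors, which are cation channels opened by acetylcholine. The series compared ageing with this deficiency, and each array measured total RNA of 1 animal's whole brain. Because the tissue was whole brain, fewer cells of a type and less RNA per cell cannot be told apart. The sources used here do not say where or how the alpha7 gene was inactivated, which sex the animals had, or whether litters were shared, so p-values measure the spread between these animals. Log2 signals of Xist, which is transcribed in female mice, fell into separate ranges, 6.23 to 6.98 on 11 arrays and 9.92 to 11.07 on 9. The high range held 2 arrays of young and 3 of aged wild type, and 3 of young and 1 of aged alpha7-deficient mice, and with the Xist signal as a covariate the same 11 members were called for age averaged over genotypes.

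Cilia are microtubule projections of the cell surface. Most neurons and astrocytes carry a single immotile primary cilium that acts as an antenna for signalling. Ependymal cells, which line the ventricles, carry tufts of motile cilia that beat and move cerebrospinal fluid. Both kinds are built by intraflagellar transport, in which kinesin motors carry protein trains from the base to the tip, and the BBSome ferries membrane receptors along them. Motile cilia add an axoneme with dynein arms, radial spokes and a central pair of microtubules. RFX transcription factors bind a promoter motif called the X-box in genes of both kinds of cilium, and Foxj1, a forkhead factor, drives the motile programme.

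Promoters of the members were examined for these motifs, since 3 RFX genes are among those that changed with age below. RefSeq promoters (GRCm38.p6, from 250 bases before to 50 bases after the annotated start, both strands) were matched for 63 of the 71 genes. The X-box core was searched as GTTNCC followed, after any 2 bases, by GG, a form chosen after the matches of several forms had been seen. It occurred in 13 of the 63 genes (20.6%), against 7.15% of 27025 genes with a promoter. The shorter RFX half-site GTTGCC, which can lie inside an X-box core, occurred in 26 of the 63 (41.3%), against 14.1% of all genes. The forkhead motif GTAAACA was found in 5 of the 63 (7.94%), against 4.05%. The member promoters had a median GC content of 56.7%, against 52.7% for all promoters, and its part in these shares was not tested.

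Of the 11 members that changed with age, 10 had a promoter in the table, and 4 of these held the X-box core: Bbs1, Dnali1, Cc2d2a and Ift57. Stretches around those matches are shown because they place the searched form in genes whose signals are described below. They are printed 5′ to 3′ on the strand of the gene, with the match in capitals. They lie at chr19:4906598-4906716 (minus strand, Bbs1), chr4:125065628-125065755 (minus strand, Dnali1), chr5:43662266-43662405 (plus strand, Cc2d2a) and chr16:49699117-49699256 (plus strand, Ift57).
Bbs1: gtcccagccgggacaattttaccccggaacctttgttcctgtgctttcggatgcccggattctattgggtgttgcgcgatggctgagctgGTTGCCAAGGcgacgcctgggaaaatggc
Dnali1: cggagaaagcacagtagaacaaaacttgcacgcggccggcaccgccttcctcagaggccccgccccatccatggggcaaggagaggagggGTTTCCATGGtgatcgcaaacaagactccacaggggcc
Cc2d2a: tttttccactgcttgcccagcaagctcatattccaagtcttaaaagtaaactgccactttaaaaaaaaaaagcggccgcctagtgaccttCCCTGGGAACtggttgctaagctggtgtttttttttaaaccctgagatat
Ift57: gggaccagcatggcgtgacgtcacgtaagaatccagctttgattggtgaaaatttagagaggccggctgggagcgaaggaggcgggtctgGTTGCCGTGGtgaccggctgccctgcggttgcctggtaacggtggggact
The matches begin at offsets of 1, -8, -23 and -87 bases from the annotated start. In Cc2d2a the core reads on the opposite strand. Capitals in these stretches mark only the searched form, and other forms of the X-box were not counted. The Ift57 stretch also holds a half-site GTTGCC in lower case, followed by TGGTAAC, which the searched form does not match. Ak7 held the only forkhead match among the 10, at chr12:105705761-105705897 (plus strand) and an offset of -131.
Ak7: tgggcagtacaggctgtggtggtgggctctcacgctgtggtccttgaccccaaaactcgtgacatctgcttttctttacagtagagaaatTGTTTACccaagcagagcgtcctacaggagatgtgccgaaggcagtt
A match is a run of letters in the promoter, and no binding was measured in these samples.

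Many axonemal genes lay near background, and the transport genes lay above it. A gene was tested when its mean log2 signal over the 20 arrays reached 5.45, a signal of 43.6, the 40th percentile of all probe sets. Of the 71 members, 52 passed (73.2%), against 73.6% of all 18193 genes. All 26 genes of intraflagellar transport, its kinesins, the BBSome and the transition zone passed. Among the 33 genes of dynein arms, dynein assembly, radial spokes, central pair and tektins, 16 passed (48.5%). The genes under the limit were 6 dynein heavy chains (Dnah2, Dnah6, Dnah8, Dnah11, Dnah12 and Dnah17), both Dnaic genes, Dnaaf6, Rsph6a, Spag6, Spag16, Spag17, 4 tektins (Tekt2 to Tekt5), Rfx8 and Ppp1r32. They are given as near background and were not tested in the main analysis. The gene just inside the limit was Dnah5 with a mean of 5.46, and the one just outside was Dnaic1 with 5.43.

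**Figure D1:**
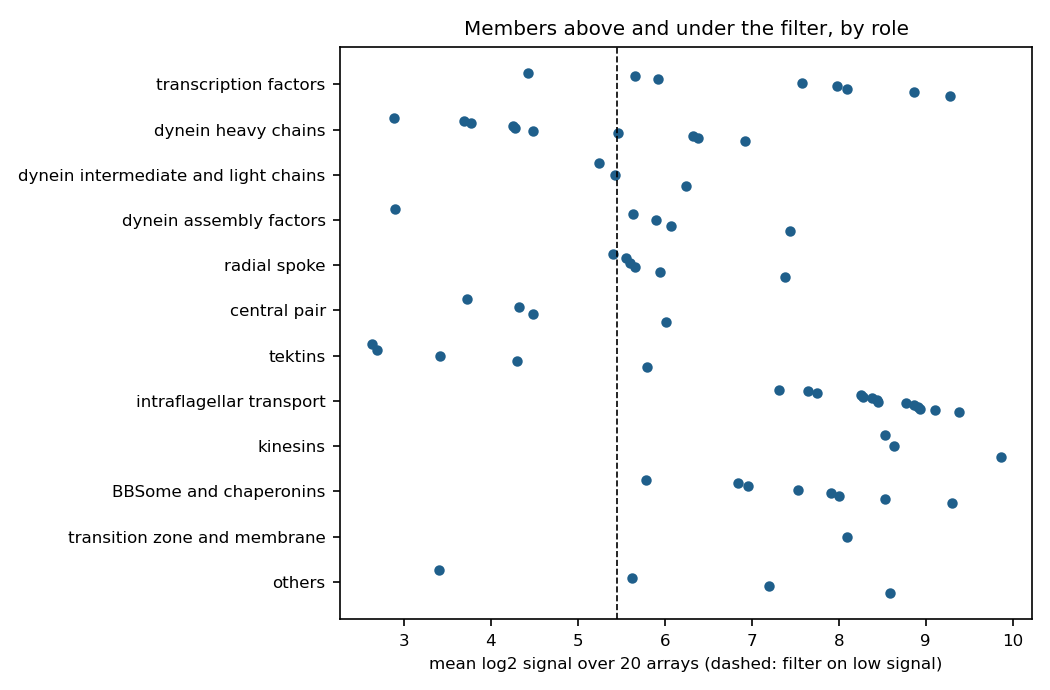
Mean log2 signal over the 20 arrays (horizontal axis) of each of the 71 members, 1 point per gene, in rows by role; the dashed line is the limit of 5.45. Transport, kinesin, BBSome and transition zone genes lie right of the line, and the axonemal rows straddle it; signals of different probe sets depend on the probes, so points are to be read against the line and not against each other.

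Among the tested members, 8 had a mean under the limit in at least 1 group. Dnah5 fell under it in 2 groups, and Foxj1, Hydin, Mlf1, Rfx2, Rsph3a, Rsph4a and Tekt1 in 1 group each. The median standard error (SE) of the age difference was 0.155 on the log2 scale for the axonemal members and 0.0796 for the transport members, so a change of the same size was harder to detect in the axoneme.

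Signals of 11 of the 52 tested members differed between 8 weeks and 2 years when the genotypes were averaged (limma, Benjamini-Hochberg adjusted p under 0.05 over 13389 genes). This was 21.2% of the members, against 17.5% of all genes tested. The RFX factors Rfx2, Rfx3 and Rfx7, the BBSome subunit Bbs1, the transport genes Ift57 and Kif17 (the latter by 1 of its 3 probe sets), the dynein gene Dnali1 and the adenylate kinase gene Ak7 fell. Tppp3, Cc2d2a and Tekt1 rose. The split was 3 higher (5.77% of members, against 9.12% of all genes) and 8 lower (15.4%, against 8.42%). The median age difference of the members was -0.022 on the log2 scale, beside 0.0031 for all genes, and the other 41 tested members did not pass. No member separated the 10 aged from the 10 young arrays completely, as 0.762% of all genes did. Separations within a genotype, and counts of aged arrays beyond all young ones, are given below as descriptions of single genes. Their shares over all genes were not computed.

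**Figure D2:**
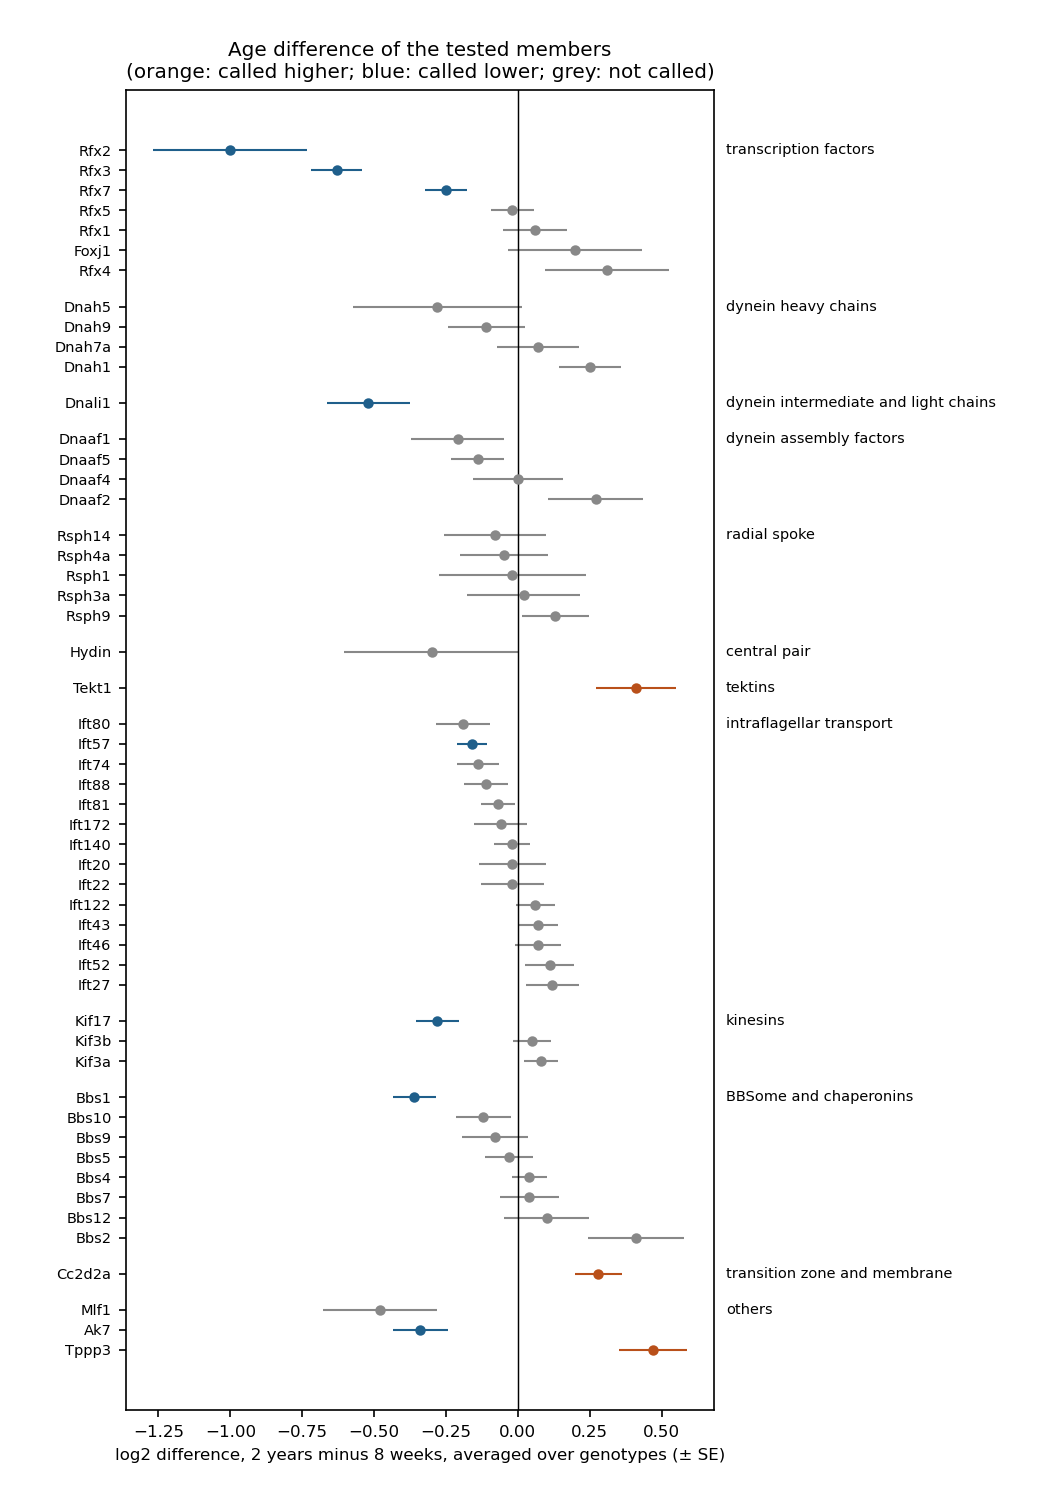
Age difference of each of the 52 tested members (points, log2 signal at 2 years minus 8 weeks, averaged over genotypes; bars, SE), in blocks by role. Rfx2 and Rfx3 lie farthest left, at -1.002 and -0.63, Tppp3 farthest right, at 0.47, and the intraflagellar transport genes lie between -0.19 and 0.12.

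The counts by role that follow are of 1 to 16 genes each, and the shares of all genes beside them are 9.12% higher and 8.42% lower throughout. Of the 7 tested transcription factors, 3 fell and 0 rose. Rfx3, which directs cilium formation in ependyma and other ciliated cells, had the smallest p of all members. In wild-type mice its log2 signals were 8.39, 8.45, 8.22, 8.53 and 7.92 at 8 weeks and 7.90, 8.09, 7.64, 7.81 and 7.93 at 2 years. In alpha7-deficient mice they were 8.53, 8.54, 8.35, 8.63 and 8.46 at 8 weeks and 7.94, 7.73, 7.59, 7.31 and 7.79 at 2 years. Within the alpha7-deficient mice every aged array lay below every young one, while in wild type the fifth young array (7.92) lay among the aged. Averaged over genotypes Rfx3 fell by 0.63 on the log2 scale (SE 0.0887, limma adjusted p = 9.9e-05), a 1.55-fold decrease. A second Rfx3 probe set, close to the limit, differed by -0.25 (SE 0.221).

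Rfx2, a close relative that acts with Foxj1 on motile cilium genes, showed the largest fall. Its wild-type signals were 6.41, 5.98, 6.36, 7.05 and 6.03 at 8 weeks and 5.28, 5.44, 6.13, 5.62 and 6.41 at 2 years. The alpha7-deficient signals were 6.28, 6.34, 6.84, 6.79 and 6.10 at 8 weeks and 6.23, 5.66, 3.84, 3.96 and 5.59 at 2 years. Aged arrays 3 and 4 of the alpha7-deficient group (3.84 and 3.96) were far under the limit of 5.45, and 7 of the 10 aged arrays lay below all young ones. Averaged over genotypes, Rfx2 fell by 1.002 (SE 0.268, adjusted p = 0.0135), and the estimate was -1.34 without 3 arrays described with Hydin below and -0.60 with 32 added to every signal. Its other 3 probe sets were under the limit.

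Rfx7, a widely expressed family member, changed less. Wild-type arrays gave 9.13, 9.30, 9.48, 9.55 and 9.10 at 8 weeks and 9.03, 9.28, 9.10, 9.16 and 9.26 at 2 years. Alpha7-deficient arrays gave 9.54, 9.48, 9.49, 9.20 and 9.77 at 8 weeks and 8.95, 9.13, 9.23, 9.08 and 9.27 at 2 years. The ages overlapped in both genotypes. Rfx7 fell by 0.25 (SE 0.0742, adjusted p = 0.0217), and a second probe set differed by -0.22 (SE 0.0856). Its highest young signals, 9.55 and 9.77, came from the 2 arrays with the highest ratios of 3′ to 5′ signal in beta-actin, a sign of RNA quality (log2 ratios of 1.88 in young wild type 4 and 1.69 in young alpha7-deficient 5, and at most 1.27 in aged mice). Without those arrays Rfx7 differed by -0.19 with an adjusted p of 0.068 and was no longer called. By the same ratio in Gapdh the order was different. Young wild type 4 was again highest (3.42), and aged alpha7-deficient 2 (3.17) lay above young alpha7-deficient 5 (3.05).

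Foxj1 itself stayed near background. In wild type it read 5.38, 5.28, 6.03, 5.59 and 6.53 at 8 weeks and 6.04, 6.0, 5.62, 4.55 and 6.34 at 2 years. In alpha7-deficient mice it read 5.10, 5.78, 5.25, 5.14 and 5.53 at 8 weeks and 5.96, 6.08, 4.96, 5.71 and 6.38 at 2 years. All 4 groups overlapped, and each group had arrays on both sides of the limit. The age difference was 0.20 (SE 0.233, adjusted p = 0.581), with a 95% interval from -0.28 to 0.69, so differences inside that range could not be told from none. Rfx1, Rfx5 (a regulator of MHC class II genes) and Rfx4 (a factor of neural progenitors and astrocytes) had age differences of 0.06, -0.02 and 0.31 and did not pass.

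**Figure D3:**
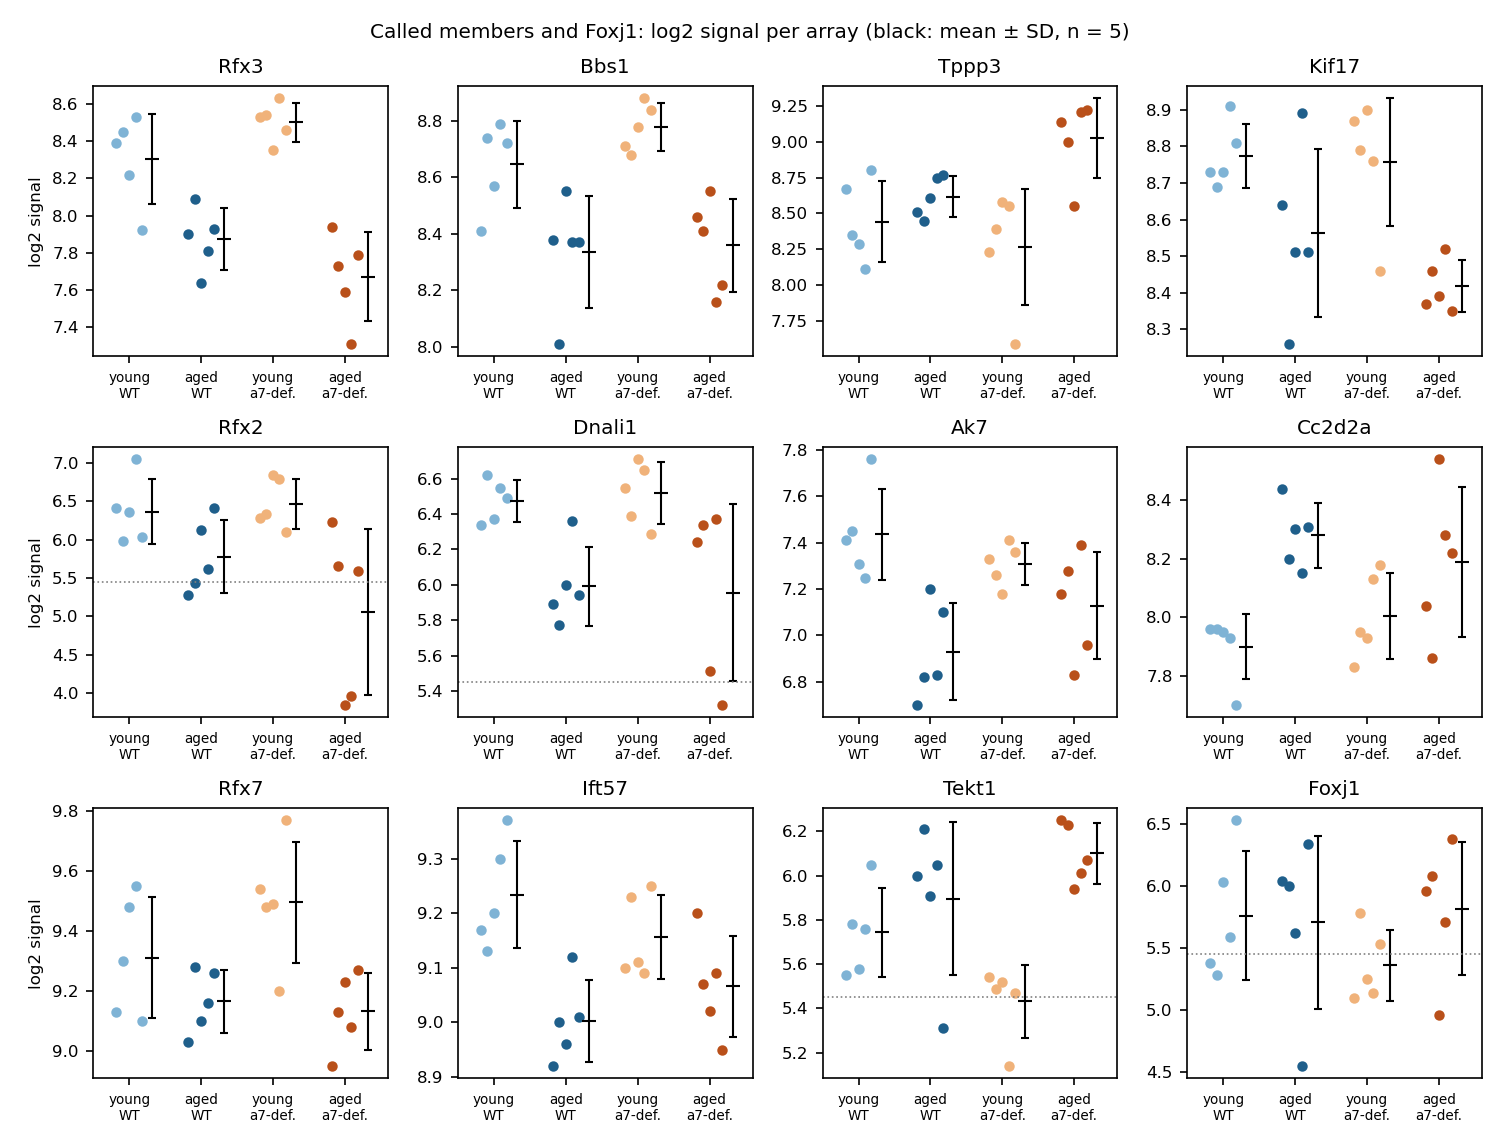
Log2 signal of the 11 called members and Foxj1 on each of the 20 arrays (points; 5 per group, in replicate order), with the group mean and SD in black and the limit of 5.45 dotted where it falls in range; each panel has its own axis. Rfx3, Bbs1 and Tekt1 separate the ages within the alpha7-deficient mice, Ak7, Cc2d2a and Ift57 within wild type, and Foxj1 in neither. Apart from Foxj1 the genes shown were already called for age, and the share of all genes that separate within a genotype was not computed.

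Of the 16 tested axonemal members 1 rose and 1 fell with age (12.5%, beside 17.5% of all genes). None of the 4 tested dynein heavy chains (the motors of the arms), 4 assembly factors and 5 radial spoke genes was called for age averaged over genotypes, with 1, 0 and 0 at an unadjusted limma p under 0.05. Among the heavy chains Dnah1, of the inner arm, had the highest mean log2 signal (6.92) and differed by 0.25 (SE 0.108, adjusted p = 0.113). Within alpha7-deficient mice Dnah1 differed by 0.43 (SE 0.152, adjusted p = 0.0573) and was called in 4 of 31 alternatives, among them those without young alpha7-deficient array 5 (0.51, adjusted p = 0.0394) and without aged alpha7-deficient array 4 (0.54, adjusted p = 0.0249). Dnaaf5, the assembly factor with the highest mean signal, differed by -0.14 (SE 0.0927), and Rsph9, of the radial spoke head, by 0.13 (SE 0.116). Dnali1, a light chain of the inner dynein arms, fell. In wild type its signals were 6.34, 6.62, 6.37, 6.55 and 6.49 at 8 weeks and 5.89, 5.77, 6.0, 6.36 and 5.94 at 2 years. In alpha7-deficient mice they were 6.55, 6.39, 6.71, 6.65 and 6.29 at 8 weeks and 6.24, 6.34, 5.51, 6.37 and 5.32 at 2 years. In wild type only the fourth aged array reached the young range, and 7 of the 10 aged arrays lay below all young ones. Dnali1 fell by 0.52 (SE 0.144, adjusted p = 0.0163), a 1.44-fold decrease.

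Tekt1, a filament protein of the doublet microtubules, was the only tested tektin, and it rose. Wild-type arrays read 5.55, 5.78, 5.58, 5.76 and 6.05 at 8 weeks and 6.0, 6.21, 5.91, 6.05 and 5.31 at 2 years. Alpha7-deficient arrays read 5.54, 5.49, 5.52, 5.14 and 5.47 at 8 weeks and 6.25, 6.23, 5.94, 6.01 and 6.07 at 2 years. The alpha7-deficient ages did not overlap, and the wild-type ages did. Averaged over genotypes the difference was 0.41 (SE 0.14, adjusted p = 0.0452). This call was at the edge of the threshold: it was lost in 22 of 31 alternative analyses, with adjusted p up to 0.0824. With 32 added to every signal the difference was 0.26 (adjusted p = 0.0378).

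Of the central pair, Hydin, whose loss causes hydrocephalus in mice, was the only tested gene. It differed by -0.30 (SE 0.305, adjusted p = 0.531). Young wild-type array 5 read 4.27, where the other 4 young wild-type arrays read 6.51 to 6.71. That animal and aged alpha7-deficient animals 1 and 2 carry label numbers far from the rest, and their arrays have the 3 lowest median signals (61.29, 65.99 and 62.29, in a range up to 78.94). Without these 3 animals Hydin differed by -0.67 (adjusted p = 0.0482). Spag6, a scaffold protein of the central pair, was near background and was left out of the main test. Its differences with no filter are given with the alternatives below. Its young log2 signals were 3.12, 3.47, 0.87, 5.02 and 0.90 in wild type and 4.37, 4.05, 3.59, 3.81 and 2.99 in alpha7-deficient mice. At 2 years they were 5.11, 5.17, 5.99, 4.95 and 5.77 in wild type and 5.40, 5.64, 5.58, 5.15 and 5.45 in alpha7-deficient mice. Thus 9 of 10 aged arrays lay above all young ones, with group means of 5.4 and 5.45 at 2 years, both under the limit before rounding.

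Most intraflagellar transport genes differed little. All 14 were tested, and 1 fell, with age differences from -0.19 (Ift80) to 0.12 (Ift27). Ift81, which binds tubulin cargo and had the highest mean signal of the group, differed by -0.07 (SE 0.0589). Ift57, a peripheral subunit of the IFT-B train, gave 9.17, 9.13, 9.20, 9.30 and 9.37 at 8 weeks and 8.92, 9.0, 8.96, 9.12 and 9.01 at 2 years in wild type. In alpha7-deficient mice it gave 9.10, 9.23, 9.11, 9.09 and 9.25 at 8 weeks and 9.20, 9.07, 9.02, 9.09 and 8.95 at 2 years. Wild-type ages did not overlap, and 8 of the 10 aged arrays lay below all young arrays. The fall was small, at 0.16 (SE 0.0531, adjusted p = 0.0401, 1.12-fold), and the call was lost in 16 of 31 alternatives, with adjusted p up to 0.0889. A second Ift57 probe set, under the limit with a mean of 5.11, differed the other way, by 0.53 (SE 0.286).

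Of the kinesin-2 motors that pull the trains, Kif3a and Kif3b differed by 0.08 (SE 0.0587) and 0.05 (SE 0.0654). Kif17, a separate kinesin-2 that also carries NMDA receptor cargo in dendrites, was called lower. It read 8.73, 8.69, 8.73, 8.91 and 8.81 at 8 weeks and 8.64, 8.26, 8.51, 8.89 and 8.51 at 2 years in wild type. It read 8.87, 8.79, 8.90, 8.76 and 8.46 at 8 weeks and 8.37, 8.46, 8.39, 8.52 and 8.35 at 2 years in alpha7-deficient mice. The fourth aged wild-type array (8.89) lay at the top of the young range, and the groups overlapped in both genotypes. The difference was -0.28 (SE 0.0735, adjusted p = 0.0131). This direction belongs to 1 of its 3 probe sets, the one with the highest mean signal. The other 2, both above the limit, differed the other way, by 0.15 (SE 0.0703) and 0.55 (SE 0.231), so the array gives no single direction for Kif17.

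**Figure D4:**
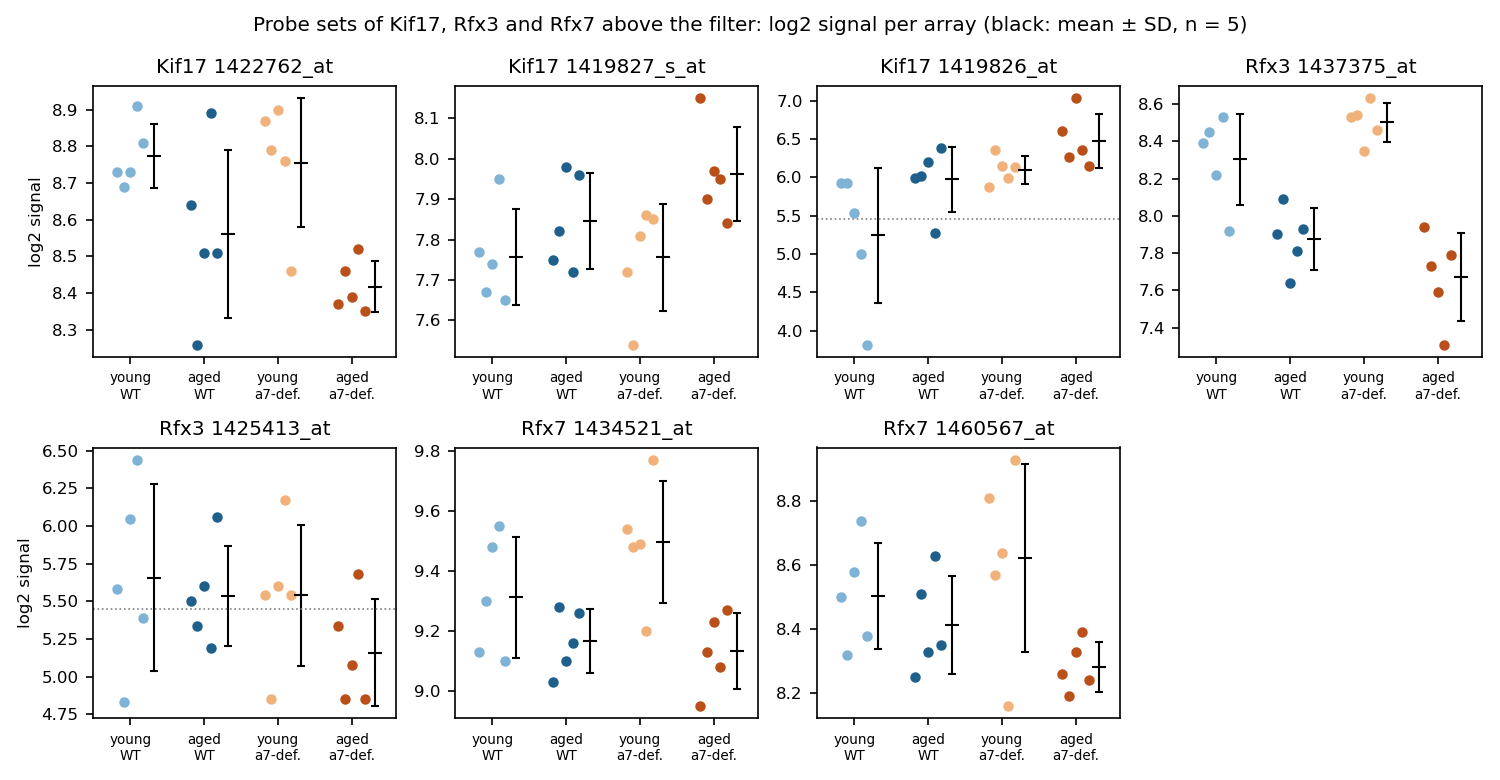
Log2 signal per array (points; 5 per group, with mean and SD in black) for the probe sets above the limit of the 3 called genes that have more than 1 such probe set. The first Kif17 probe set is lower and the other Kif17 probe sets are higher at 2 years, while both probe sets of Rfx3 and of Rfx7 differ downward.

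Among the 8 BBSome and chaperonin genes, 1 fell and 0 rose. Bbs1, a BBSome subunit that contacts membrane cargo, read 8.41, 8.74, 8.57, 8.79 and 8.72 at 8 weeks and 8.38, 8.01, 8.55, 8.37 and 8.37 at 2 years in wild type. In alpha7-deficient mice it read 8.71, 8.68, 8.78, 8.88 and 8.84 at 8 weeks and 8.46, 8.41, 8.55, 8.16 and 8.22 at 2 years. All young alpha7-deficient arrays lay above all aged ones, and in wild type the third aged array (8.55) lay within the young range. Bbs1 fell by 0.36 (SE 0.0742, adjusted p = 0.00253), a 1.29-fold decrease. Bbs4, the BBSome gene with the highest mean signal, differed by 0.04 (SE 0.061). Bbs2, another subunit, differed by 0.41 (SE 0.167, adjusted p = 0.0906). Its lowest signals, 6.1 and 6.75, were those of the 2 arrays with the highest 3′ to 5′ ratios of beta-actin.

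Cc2d2a encodes a protein of the transition zone, the gate at the base of the cilium, and was higher at 2 years. Wild-type signals were 7.96, 7.96, 7.95, 7.93 and 7.70 at 8 weeks and 8.44, 8.20, 8.30, 8.15 and 8.31 at 2 years. Alpha7-deficient signals were 7.83, 7.95, 7.93, 8.13 and 8.18 at 8 weeks and 8.04, 7.86, 8.54, 8.28 and 8.22 at 2 years. In wild type the ages were separate, and in alpha7-deficient mice they overlapped. The rise was 0.28 (SE 0.0804, adjusted p = 0.0191), or 1.22-fold.

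Of the remaining genes, Tppp3, a tubulin-binding protein abundant in ependyma and choroid plexus, rose, and Ak7, an adenylate kinase of motile cilia, fell. Tppp3 read 8.67, 8.35, 8.29, 8.11 and 8.80 at 8 weeks and 8.51, 8.45, 8.61, 8.75 and 8.77 at 2 years in wild type. In alpha7-deficient mice it read 8.23, 8.39, 8.58, 8.55 and 7.59 at 8 weeks and 9.14, 9.0, 8.55, 9.21 and 9.22 at 2 years. The wild-type ages overlapped over the whole aged range, and in alpha7-deficient mice only the third aged array (8.55) reached the young arrays. Tppp3 rose by 0.47 (SE 0.119, adjusted p = 0.0103, 1.38-fold). Its lowest signal of each young group (8.11 and 7.59) came from an array with a high 3′ to 5′ ratio, and without these 2 arrays the rise was 0.34 and still passed.

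For Ak7 the age difference was -0.51 in wild type and -0.18 without alpha7, with the difference between them at an adjusted p of 0.638. Wild-type arrays read 7.41, 7.45, 7.31, 7.25 and 7.76 at 8 weeks and 6.70, 6.82, 7.20, 6.83 and 7.10 at 2 years. Alpha7-deficient arrays read 7.33, 7.26, 7.18, 7.41 and 7.36 at 8 weeks and 7.18, 7.28, 6.83, 7.39 and 6.96 at 2 years. Ages were separate in wild type only. Averaged over genotypes Ak7 fell by 0.34 (SE 0.0959, adjusted p = 0.0177). Mlf1, a protein found in ciliated cells, differed by -0.48 (SE 0.197, adjusted p = 0.0948) and did not pass.

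Age was then compared within each genotype, groups that share no array. In wild type 0 members were called (limma; 8 at an unadjusted p under 0.05), where 0.769% of all genes were (0.485% higher and 0.284% lower). The smallest adjusted p was that of Ak7 (0.0894), with a difference of -0.51 (SE 0.136). In alpha7-deficient mice 7 members were called (13.5%), against 14.7% of all genes. Rfx2, Rfx3, Rfx7, Bbs1 and Kif17 fell, and Tppp3 and Tekt1 rose. All genes gave 7.82% higher and 6.87% lower. Rfx3 fell by 0.83 (SE 0.125, adjusted p = 4.6e-04) and Tppp3 rose by 0.76 (SE 0.169, adjusted p = 0.00604). The same differences in wild type were -0.43 and 0.18. In alpha7-deficient mice 3 of the 7 calls ended when 1 array was left out. Kif17 lost its call without any 1 of 7 arrays (young 1, 2, 3 or 4, aged 1, 3 or 5; adjusted p up to 0.0833). Rfx7 lost it without young 1, young 5 or aged 1 (up to 0.0735), and Tekt1 without young 4, aged 1 or aged 2 (up to 0.0691).

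**Figure D5:**
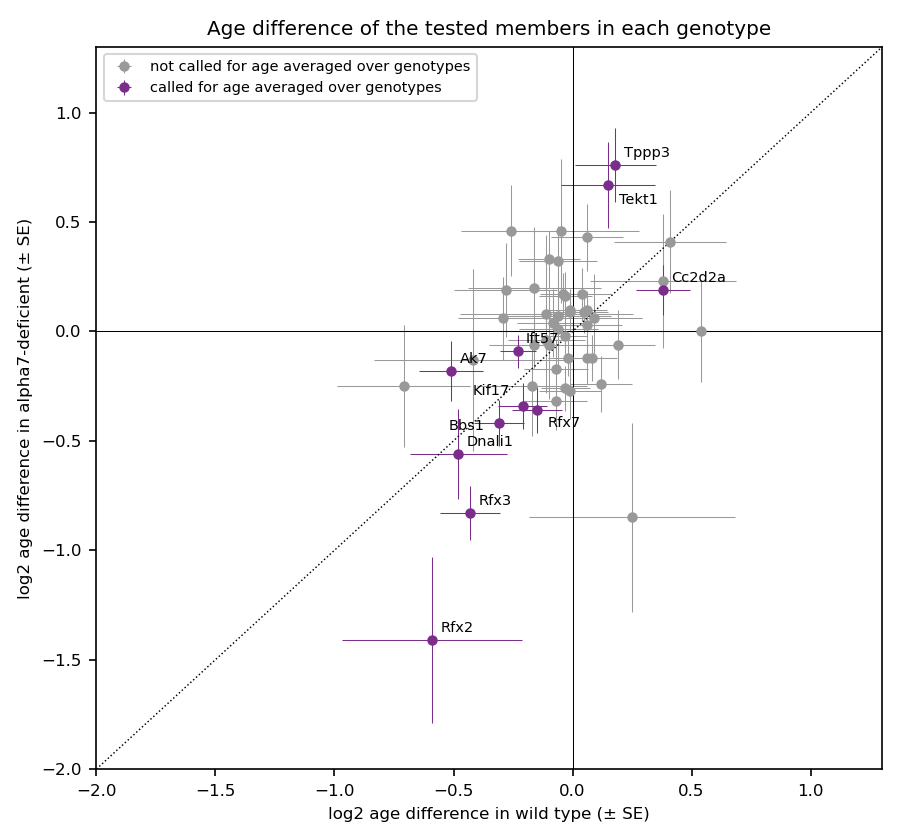
Age difference (log2, 2 years minus 8 weeks) of the 52 tested members in wild type (horizontal) and in alpha7-deficient mice (vertical), with SE bars; the dotted line marks equal differences. The 11 called members (purple, named) lie in the quadrants of equal sign, with Rfx3, Rfx2, Tppp3 and Tekt1 farther from 0 on the vertical axis and Ak7 and Cc2d2a on the horizontal. They were called on the average of both plotted differences, which favours equal signs. Of all 52 members 61.5% had equal signs, against 67.3% of all genes.

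The larger values in one genotype did not amount to a tested difference. The difference between the age effects was called for 0 members and for 0% of all genes (limma; 4 members at an unadjusted p under 0.05). Those 4 were Bbs12 (0.73, SE 0.295), Tppp3 (0.58, SE 0.238), Ift27 (0.43, SE 0.185) and Rfx3 (-0.40, SE 0.177), each with an adjusted p of 0.605. For Bbs12, a chaperonin-like protein that helps to assemble the BBSome, this joined -0.26 in wild type with 0.46 in alpha7-deficient mice. Age differences had the same sign in both genotypes for 32 of the 52 members (61.5%), against 67.3% of all genes.

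The deficiency itself left no called change in these genes. The targeted gene, Chrna7, was checked first: its log2 signal was 8.35 to 9.16 in wild type and 5.2 to 6.41 in alpha7-deficient mice, a difference of -3.08 (SE 0.127, adjusted p = 2.2e-13). Between genotypes, 0 members were called when ages were averaged, 0 at 8 weeks and 0 at 2 years (limma; 1, 2 and 4 at an unadjusted p under 0.05), and 0.00747% of all genes were called in each, which is Chrna7 alone. Averaged over ages, Ift52, of the IFT-B train, differed by -0.21 (SE 0.0858, adjusted p = 0.999). At 8 weeks Ift172 differed by 0.30 (SE 0.129, adjusted p = 0.925). At 2 years the widest gap was that of Hydin, -1.08 (SE 0.431, adjusted p = 0.818), and Tppp3 differed by 0.40, with a 95% interval from 0.06 to 0.75. None of these differences passed the test. In alpha7-deficient mice an age difference of similar size passed, that of Bbs1 (-0.42, SE 0.105). Its SE was smaller than the 0.169 of Tppp3 at 2 years. In that age comparison 14.7% of all genes were called, and the adjusted threshold is easier to reach where many genes are called. The call of Bbs1 therefore does not show that a genotype difference of 0.40 could have passed.

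Genes of the same pathways outside the symbol rule were read from lists. Of 57 other primary cilium genes, 51 were on the array and 50 were tested, and 4 rose and 4 fell with age (16%, beside 17.5% of all genes). The 5 with the smallest adjusted p were Wdr34, an intermediate chain of the transport dynein (0.38, SE 0.0926), Wdr19, an IFT-A subunit (-0.32, SE 0.077), Mchr1, a receptor of neuronal cilia (0.27, SE 0.0755), Ttc30b, an IFT-B subunit (-0.29, SE 0.0822), and Kifap3, the accessory subunit of the Kif3 motor (-0.13, SE 0.0395). Their adjusted p lay between 0.00737 and 0.0295. Of 50 other motile cilium genes, 39 were on the array, 20 were tested, and 0 rose and 1 fell (5%). That gene was Ccdc39, which sets the spacing of dynein arms, with a difference of -0.82 (SE 0.242, adjusted p = 0.0232). Under the limit were 19 of the 39, beside 17 of the 33 axonemal members.

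No ependymal marker outside the rule was called. Of 13 measured, 9 were tested and 0 were called for age (limma; 0 at an unadjusted p under 0.05), with differences from -0.16 (Mia, SE 0.167) to 0.36 (Fam183b, SE 0.185, adjusted p = 0.181). Enkur, Meig1, 1700012B09Rik and 1110017D15Rik were under the limit, so the defining markers were detected in part, and some of these genes stand in the motile list too. The summed signal of the 13 ranged over arrays from 1201 to 1844 in young and 1074 to 1421 in aged wild type, and from 1143 to 1421 in young and 1094 to 1682 in aged alpha7-deficient mice. The groups overlapped.

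Markers of other cell types moved with age beside the members, and their part in the members' differences was not tested. The counts are to be read beside 9.12% of all genes higher and 8.42% lower. Choroid plexus markers, from an epithelium that shares ciliary genes with ependyma, gave 1 higher and 1 lower of 12 tested (Ttr 0.22, Kl -0.27), and their summed signal was 13866 to 16572 in young and 14548 to 17473 in aged wild type, 11561 to 15499 in young and 14808 to 17797 in aged alpha7-deficient mice. Immature neuron markers fell in 3 of 4 tested, with Sox4 at -1.04, Sox11 at -1.08 and Dpysl3 at -0.59. Their sum was 1841 to 3393 in young and 1488 to 1711 in aged wild type, and 2605 to 3226 in young and 1233 to 1653 in aged alpha7-deficient mice. In both genotypes the sums of the ages were separate.

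Glial markers rose in part. Microglia had 3 higher of 7 (Tyrobp 1.26), astrocytes 2 higher of 6 (Gfap 0.91), and oligodendrocytes 1 higher (Mbp 0.26) and 1 lower (Mog -0.50) of 5. Neurons had 1 higher of 6 (Snap25 0.16), and meninges and fibroblasts 2 lower of 8 (Col1a1 -0.80, Col1a2 -0.53). Of 4 tested pituitary markers 0 were called for age, with 0 at an unadjusted limma p under 0.05. The summed signal of the 5 measured ran from 468 to 31175 in young and 300 to 24332 in aged wild type. In alpha7-deficient mice it ran from 268 to 492 in young and 221 to 432 in aged animals. Between genotypes, averaged over ages, 0 of the 4 were called and 3 had an unadjusted limma p under 0.05.

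Across the arrays the axonemal members correlated little with each other. After subtraction of group means, pairs of the 16 tested axonemal members had a median Pearson r of 0.05 over the 20 arrays (120 pairs, 1 above 0.5). The 26 transport members had a median of 0 (325 pairs, 6.77% above 0.5), and all genes tested a median of 0 with 5.46% above 0.5. The 12 tested choroid plexus markers, of 1 epithelium, also had a median of 0.05 (66 pairs, 7.58% above 0.5). Mean log2 signals of the axonemal members were low (5.46 to 7.44). The correlations therefore cannot show whether axonemal members vary together. They are descriptions, and the arrays share 1 scaling.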

How the data were processed

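Total RNA of 20 whole brains was put on Affymetrix arrays with a biotin label, 1 array per animal, per the labels' protocols. The deposited values are linear signal intensity per probe set, made by the authors with MAS5 per the submitters' processing notes. For its version, scaling target and filters, nothing is stated in the labels. The mean of each array after trimming 2% at each end was 250.

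Of 45101 probe sets, 64 were controls, 34945 named 1 gene symbol in the platform annotation, 932 several and 9160 none. The gene identifiers of all 71 members were found in RefSeq's GRCm38.p6 table, with 0 symbols changed. Signals were taken to log2 with no added constant. The median signal per array was 61.29 to 78.94, and the number of arrays limits the precision. Probe sets under the 40th percentile of mean log2 were left out, and 1 probe set with 1 symbol was kept per gene.

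The test was limma 3.58.1 (R 4.3.3): lmFit with 4 group means over 20 arrays, eBayes with an intensity trend, two-sided, Benjamini-Hochberg over 13389 genes, with a gene called at an adjusted p under 0.05. To compare probe sets of 1 gene, all probe sets with 1 symbol were fitted the same way with no filter. The script was tested on simulated data. Groups came from the genotype and age labels, and replicate numbers only name an array.

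Members and lists (other primary and motile cilium genes, and markers of ependyma, choroid plexus, meninges, astrocytes, neurons, oligodendrocytes, microglia, immature neurons and pituitary) were chosen with earlier results of these data known. Values in every array were given for members called in any comparison and for Foxj1, 1 example with the highest signal was named per role, and at most 5 called genes were named per pathway list. Spag6, Bbs2, Mlf1, Bbs12, Ift27, Ift52 and Ift172 were among those named after their values were seen. Alternatives were quantile normalization, other filters on low signal, raised low signals, an added constant of 32, other choices of probe set, Xist signal as a covariate, no intensity trend, and arrays left out.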

Additional observations from a re-analysis of the deposited data

Results flagged for a closer look

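Among 48 sets of 5 arrays (12 members in 4 groups), 2 held an array far from the other 4 by Dixon's test at the 95% level (critical value 0.71), and chance alone marks about 1 in 20 such sets. For Cc2d2a, young wild-type replicate 5 read 7.7 on the log2 scale, where the other 4 read 7.93 to 7.96, a gap of 0.881 of the range. For Tekt1, young alpha7-deficient replicate 4 read 5.14, where the other 4 read 5.47 to 5.54, a gap of 0.822 of the range. Without that array Tekt1 differed by 0.37 with age (limma adjusted p = 0.0746) and was no longer called.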

How the results depend on the processing

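Each of the 7 counts of called members was recomputed under 31 alternatives, 20 of which leave out 1 array. The count for age averaged over genotypes was 8 to 12 (9 to 10 with 1 array left out), and that in alpha7-deficient mice 5 to 9. Rfx2, Rfx3, Bbs1, Tppp3, Kif17, Dnali1, Ak7 and Cc2d2a were called in every one for age averaged over genotypes, while Ift57 was lost in 16, Tekt1 in 22 and Rfx7 in 1. For Kif17 all alternatives used the same probe set. Its other probe sets above the limit, which differed the other way, did not enter. Within alpha7-deficient mice, without the 3 animals with distant numbers, the calls of Kif17 (adjusted p = 0.0956), Rfx7 (0.108) and Tekt1 (0.131) were lost and those of Dnali1 (0.0412) and Hydin (0.0486) gained. In wild type the count of 0 became 2 with no filter (Ppp1r32 at -2.88, Spag6 at 2.72, both near background), 1 without the 3 animals with distant numbers, and 0 to 1 with 1 array left out. The 1 was Rfx3 each time (-0.52, adjusted p = 0.0217 and, without young wild-type replicate 5, 0.0337). With no filter, the difference between age effects gained 1 call (Ppp1r32, 4.17, adjusted p = 0.0292), and age averaged over genotypes gained Spag6 (2.20) and Dnah6 (-1.02). The genotype counts were 0 throughout, and the age differences of the 11 called members and Foxj1, averaged over genotypes, kept their sign. Leaving out the 2 arrays with the highest summed 3′ to 5′ ratios of Gapdh and beta-actin, which gave 8, was chosen after seeing the data. No paired analysis was possible because replicate numbers were given in accession order. Low signal limits the axonemal genes most.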

Other observations

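The near-background member Ppp1r32, a protein of ciliated cells, had group means that ran in opposite directions: 4.77 at 8 weeks and 1.9 at 2 years in wild type, against 2.82 and 4.12 without alpha7 (log2 signal, 5 arrays each). All 4 means are under the limit of 5.45, so these are differences among signals near background.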
